A study of Mus musculus with 12 samples.

Results

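The alpha-like globins are the genes of the mouse alpha-globin locus that encode the alpha-type chains of hemoglobin. All 5 were taken by gene symbol, Hba-x, Hba-a1, Hba-a2, Hbq1b and Hbq1a, out of 55487 gene rows in each table. RNA came from the mouse erythroid progenitor line G1E-ER4, which has no working Gata1 gene of its own and in which an introduced GATA1 fused to the hormone-binding part of the estrogen receptor sets off red cell maturation once estradiol is given. Every culture, controls included, had 100 nM β-estradiol for 24 h in medium with erythropoietin and Kit ligand. The groups were control cells, cells with 50 µM DTPA (a metal chelator, used to make cells short of zinc), cells with 50 µM DFO (an iron chelator) and cells with 0.2 mM SA, used against ALAD, an enzyme of heme synthesis. There were 3 libraries per group, which the labels call biological replicates of this 1 line. For the ALAD group the treatment text names DFO where the titles and the treatment tags name SA, and the tags were followed.

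Hemoglobin is a tetramer of alpha-type and beta-type chains around heme. Hba-x encodes zeta globin, the alpha-type chain of the first, primitive red cells of the embryo. Hba-a1 and Hba-a2 encode the alpha chain of fetal and adult red cells, and Hbq1b and Hbq1a encode theta globins, which are transcribed in erythroid cells but have no established role in hemoglobin. Distant enhancers, several of them inside the neighbouring gene Nprl3, drive the locus together with GATA1, TAL1, KLF1 and NF-E2, and the zeta gene is normally silenced as definitive red cells form.

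All 5 genes lie on the plus strand of chromosome 11 and are protein coding (GENCODE M21, build GRCm38). In order they were Hba-x at 32276400 to 32278116, Hba-a1 at 32283511 to 32284465, Hbq1b at 32286965 to 32287784, Hba-a2 at 32296489 to 32297298 and Hbq1a at 32300069 to 32300873. Their starts were 7.11, 10.6, 20.1 and 23.7 kb past that of Hba-x. Hba-a1 and Hba-a2 are near copies: 425 of 426 coding bases were the same, whereas Hba-a1 and Hba-x shared 61.7% and Hba-a1 and Hbq1b 66.7%. Of all 50-base windows of the main Hba-a2 transcript, 86.9% also occurred in that of Hba-a1, and 67.5% the other way round. For the theta genes the shares were 39.8% of Hbq1b and 36.8% of Hbq1a, and no window of Hba-a1 occurred in Hba-x. Reads in such windows cannot be placed by sequence on 1 of the copies, so the split between Hba-a1 and Hba-a2 is less certain than their sum.

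The sequences before the start sites are shown because the members fall into 3 kinds by them, and the near copies differ widely in level in 1 pair. They come from RefSeq promoters on GRCm38.p6, plus strand, and capitals mark 4 short motifs searched on either strand, with no overlap between matches. They are GATAA, letters that GATA factors bind. The next is CACCC, letters that KLF factors bind. The others are the CCAAT box and the TATA box, here the letters TATAA. All 5 members had an entry.

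Hba-a2 (chr11:32296242-32296488): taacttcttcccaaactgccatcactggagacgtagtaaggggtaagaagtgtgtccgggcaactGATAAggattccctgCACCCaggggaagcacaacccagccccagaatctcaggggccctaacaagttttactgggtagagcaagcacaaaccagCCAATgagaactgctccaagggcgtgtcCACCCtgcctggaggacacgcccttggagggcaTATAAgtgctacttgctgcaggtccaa
Hba-x, first stretch (chr11:32276487-32276516): ggctctGATAAcaggctcCACCCtgcaagc
Hba-x, second stretch (chr11:32276566-32276595): tgtgtaTATAAaggagacactggggacaag
Hbq1b (chr11:32286714-32286963): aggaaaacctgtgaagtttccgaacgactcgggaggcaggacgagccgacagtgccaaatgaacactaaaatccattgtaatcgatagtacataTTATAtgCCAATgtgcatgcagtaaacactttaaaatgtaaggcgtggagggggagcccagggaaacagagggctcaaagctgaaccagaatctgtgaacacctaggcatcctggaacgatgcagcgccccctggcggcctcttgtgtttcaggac
Hbq1a (chr11:32299819-32300068): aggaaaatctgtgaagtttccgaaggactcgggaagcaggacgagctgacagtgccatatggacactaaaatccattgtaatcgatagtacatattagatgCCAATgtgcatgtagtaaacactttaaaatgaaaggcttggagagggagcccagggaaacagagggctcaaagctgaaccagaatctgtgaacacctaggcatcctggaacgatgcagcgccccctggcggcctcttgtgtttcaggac

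The 250 bases before the RefSeq starts of Hba-a1 and Hba-a2 were identical over the 247 that align, so the sequence printed for Hba-a2 also stands before that of Hba-a1. It held 1 GATA motif, 2 KLF motifs, a CCAAT box and a TATA box. The Hba-a1 window (32283422 to 32283671) runs past the GENCODE start of that gene at 32283511. Its CCAAT box, second KLF motif and TATA box therefore lie inside the gene as annotated there. The same window of Hba-x held 1 GATA motif, 2 KLF motifs and a TATA box, and no CCAAT box. Only short stretches of it are printed, because 200 of its bases lie inside the first exon in GENCODE. The Hbq1b and Hbq1a windows shared 239 of 250 bases and a CCAAT box, and held neither the letters GATAA nor CACCC. Other forms of these motifs were not searched. The TATA letters stood on the minus strand of Hbq1b and were not found before Hbq1a. Of 32851 RefSeq promoters with the same window, 22.6% held the GATA motif, 52.0% the KLF motif, 33.8% the CCAAT box and 22.8% the TATA box. These matches describe letters and were not tested as sites.

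The values are TPM (transcript abundances), which divide reads by exon length and scale each library to 1 fixed total, so levels can be set side by side between genes. Multiplying back by exon length gave whole reads, between 19860145 and 24329311 on genes per library. The 12 red cell genes used to check the label all passed the filter on low values. Their sums were 7156 to 7407 TPM in control, 6433 to 6456 with DTPA, 7207 to 7277 with DFO and 6682 to 6709 with SA. The highest of them, Alas2 of heme synthesis, rose with DTPA from 2268 to 3002 TPM. It was the only 1 called higher there (adjusted p below 0.05 in the limma fit below). With DTPA 10 of the 12 were called lower, where 42.1% of all tested genes were, among them Slc4a1 (718 to 45.5 TPM). With DFO and with SA 1 rose and 5 fell, where 2.28% and 6.75% of all tested genes fell. The 10 megakaryocyte markers summed to 8.29 to 9.53 TPM in control, 36.9 to 46.0 with DTPA, 10.4 to 11.1 with DFO and 8.53 to 10.0 with SA. Of the 4 tested, 3 were called higher with DTPA, where 23.5% of all tested genes were. These were Gp1ba (4.30 to 18.5 TPM), Itgb3 (2.15 to 17.0 TPM) and Gp9 (1.30 to 3.11 TPM), while Ppbp and Gp1bb were at 0 in every library. The 12 mast and myeloid markers summed to at most 3.54 TPM and the 10 lymphoid ones to 2.04 TPM, both with DTPA. The 1 tested gene of each list was called higher with DTPA, Hdc (0.244 to 2.59 TPM) and Cd79a (0.569 to 1.62 TPM). Both passed the filter on low values only through their DTPA libraries. Their calls therefore partly follow from the filter and support nothing further. Mpo, Lyz2 and Cd3g were at 0 throughout. What part these shifts have in the globin values was not tested. In such pooled RNA, fewer cells with a transcript and less transcript per cell cannot be told apart.

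In control cells the adult genes made up nearly all of the alpha-like RNA, and the members ranked Hba-a1, Hba-a2, Hbq1b, Hba-x and Hbq1a, with no overlap between neighbours. Under DTPA the embryonic Hba-x rose 8.64-fold and passed Hbq1b, while the other 4 members were lower than control. With DFO and with SA the embryonic gene fell 3.30-fold and 3.06-fold, and Hba-a1 fell 1.26-fold and 1.38-fold. In both of those groups Hbq1b remained above Hba-x.

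Limma on log2(TPM + 1), fitted over 11917 genes and adjusted over all of them, called 5 of the 5 members with DTPA (1 higher, 4 lower), where 65.5% of all tested genes were called, 23.5% higher and 42.1% lower. It called 3 of 5 with DFO, all lower, against a background of 10.7% in all and 2.28% lower. With SA it called 2 of 5, both lower, against 22.2% in all and 6.75% lower. The members' groups did not overlap with control in 5, 3 and 3 of 5 cases, where 69.6%, 30.2% and 38.5% of all tested genes did not. With so many genes called, the DTPA count in itself says little about the members. These counts include Hbq1a, which passed the filter on low values through its high control level. Without it, 4, 2 and 2 of 4 members were called and 4, 2 and 2 did not overlap with control. The median log2 fold change of the members was -0.28 with DTPA, -0.50 with DFO and -0.46 with SA (-0.24, -0.42 and -0.33 without Hbq1a), and that of all tested genes was -0.11, 0.05 and 0.05. Over all genes the calls with DTPA split into 2796 higher and 5014 lower, and under median-of-ratios scaling, which moves the median by 0.11, into 3782 and 3939. The splits were 1000 and 272 with DFO (420 and 654 so scaled) and 1838 and 804 with SA (1107 and 1663 so scaled). Under that scaling 3 members were called with DTPA, 3 with DFO and 2 with SA.

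**Figure D1:**
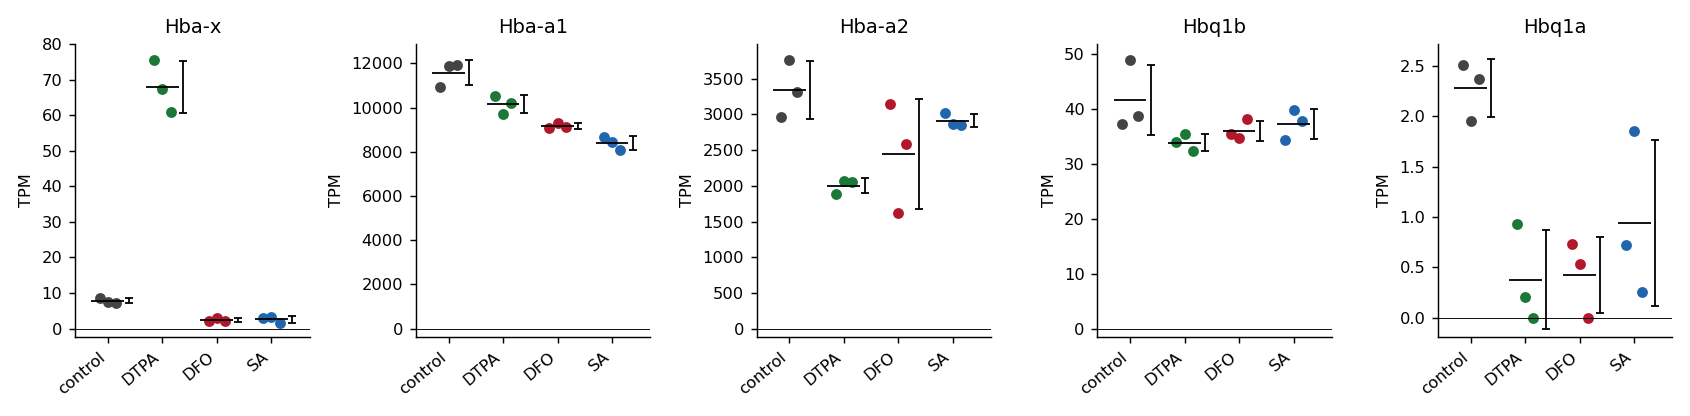
TPM of each alpha-like globin (one panel per gene, each with its own linear axis) in control, DTPA, DFO and SA; points are libraries, lines are means and side bars are SD (n = 3). Hba-x sits between 60.8 and 75.5 TPM with DTPA and at or below 8.67 TPM in all other libraries, while Hba-a1 is highest in the control libraries.

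Hba-x, the zeta-globin gene, stood at 8.67, 7.56 and 7.32 TPM in the control libraries, which is 59, 54 and 48 reads. With DTPA it reached 75.5, 67.3 and 60.8 TPM, from 504, 511 and 458 reads. With DFO it was at 2.04, 3.07 and 2.02 TPM, and with SA at 3.11, 3.14 and 1.47 TPM. Every DTPA library lay above every control library and every DFO and SA library lay below, while the DFO and SA libraries overlapped. The group means were 7.85 ± 0.722, 67.9 ± 7.37, 2.38 ± 0.600 and 2.57 ± 0.955 TPM (SD, n = 3 each). The low end rests on few reads, 13 to 18 per library with DFO and 9 to 21 with SA.

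The log2 fold change of Hba-x was 2.96 with DTPA (SE 0.189, adjusted p = 5.77e-08 by limma). It was -1.40 with DFO (adjusted p = 0.00110), where the mean fell 3.30-fold, and -1.35 with SA (adjusted p = 0.000428), where it fell 3.06-fold. Each of these calls held in all 24 alternative analyses, including each library left out in turn.

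The adult gene Hba-a1 was the highest member in every library. Its control libraries held 10940.4, 11881 and 11946 TPM. The DTPA libraries held 10543, 9719 and 10193 TPM, the DFO libraries 9063, 9321 and 9107 TPM, and the SA libraries 8690.3, 8425 and 8083 TPM. All treated libraries lay below all control libraries. Means were 11589 ± 563, 10152 ± 413, 9164 ± 138 and 8399 ± 305 TPM.

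For Hba-a1 the falls were small in size and narrow in error. The log2 fold change was -0.46 with SA (SE 0.0400, adjusted p = 1.23e-05 by limma) and -0.34 with DFO (adjusted p = 0.000490). With DTPA it was -0.19 (adjusted p = 0.00126), and this call was lost when libraries were rescaled by the median of ratios (-0.07, adjusted p = 0.273) or by a trimmed mean (-0.08, adjusted p = 0.204).

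Hba-a2, the near copy, held 2959, 3762 and 3315 TPM in control and 1887, 2064 and 2059 TPM with DTPA, without overlap. With DFO its libraries were spread over 3140, 1619 and 2587 TPM, and with SA they held 3018, 2866 and 2856 TPM. Both of these groups overlapped with control, and replicate 2 of DFO was the lowest of all 12 libraries.

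The DTPA libraries were 1.67-fold below control for Hba-a2, from 3345 ± 402 to 2003 ± 101 TPM. Limma gave -0.73 on the log2 scale (SE 0.184, adjusted p = 0.00419). The DFO change of -0.50 did not pass (adjusted p = 0.115), nor did the SA change of -0.19 (adjusted p = 0.507). Without replicate 1 of DFO, which was the highest, the DFO change was -0.70 and passed (adjusted p = 0.0287), and voom on the recovered reads also called it (-0.51, adjusted p = 0.00343).

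Summed over the copies, adult alpha RNA in TPM as deposited was lower in all 3 treatments. The sum was 13899, 15643 and 15261 TPM in control, 12429, 11783 and 12252 TPM with DTPA, 12203, 10941 and 11694 TPM with DFO, and 11709, 11291 and 10939 TPM with SA. As deposited, no treated library reached the lowest control library. The sum was not fitted under the other scalings, under both of which Hba-a1 alone lost its DTPA call. The median-of-ratios factors that divide the values were 0.910 to 0.932 with DTPA and 0.996 to 1.02 in control, which narrows the DTPA gap. After that division, replicate 1 of DTPA (12429 TPM, factor 0.910) lay above replicate 1 of control (13899 TPM, factor 1.02). The separation of DTPA from control in this sum therefore does not hold under that scaling. With the copies summed before the fit, the log2 fold change was -0.30 with DTPA (SE 0.0491, adjusted p = 0.000221), -0.36 with DFO (adjusted p = 0.00111) and -0.40 with SA (adjusted p = 0.000171).

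The theta gene Hbq1b, with 157 to 270 reads per library, had group means between 33.9 and 41.6 TPM. It held 37.3, 48.9 and 38.7 TPM in control and 33.9, 35.5 and 32.3 TPM with DTPA, just below the lowest control library. With DFO it held 35.4, 34.7 and 38.1 TPM and with SA 34.4, 39.8 and 37.8 TPM, both overlapping control. The log2 fold change was -0.28 with DTPA (SE 0.0905, adjusted p = 0.0173 by limma). That call depended on replicate 2 of control, the highest library: without it the change was -0.16 (adjusted p = 0.0504), and without replicate 3 of DTPA it was -0.25 (adjusted p = 0.0595). Voom (adjusted p = 0.0723) and both rescalings, by the median of ratios (adjusted p = 0.169) and by a trimmed mean (adjusted p = 0.148), did not call it either. The changes of -0.19 with DFO (adjusted p = 0.211) and -0.15 with SA (adjusted p = 0.287) did not pass.

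The other theta gene, Hbq1a, was near the limit of these libraries. It had 11, 9 and 10 reads in control, 4, 1 and 0 with DTPA, 3, 2 and 0 with DFO, and 3, 8 and 1 with SA. In control this was 2.28 ± 0.288 TPM. All treated libraries lay below control, and the libraries with 0 reads allow up to 0.618 TPM with DTPA and 0.673 TPM with DFO (3 reads, counting error only). Hbq1a passed the filter of 1 TPM in 3 libraries through its control libraries and 1 SA library, so its lower values elsewhere partly follow from the filter and its calls with DTPA (-1.30, adjusted p = 0.00462) and DFO (-1.24, adjusted p = 0.0377) support nothing further. Its near copy Hbq1b, with a start region alike in 95.6% of bases, had 41.6 ± 6.35 TPM in the same control libraries. With both theta genes summed, DTPA gave a log2 fold change of -0.34 (adjusted p = 0.00467 by limma), DFO -0.25 (adjusted p = 0.0918) and SA -0.19 (adjusted p = 0.154). The sum includes Hbq1a, so it adds no support to the Hbq1b change with DTPA. It was not fitted under the other scalings or with libraries left out.

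The alpha-like pseudogenes added next to nothing: Hba-ps3 had no read in any library and Hba-ps4 had 2 reads in control and none elsewhere.

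Taken as parts of 1 pool, the 5 genes summed to 14986 ± 920 TPM in control, 12257 ± 336 with DTPA, 11651 ± 635 with DFO and 11354 ± 384 with SA, or 1.50%, 1.23%, 1.17% and 1.14% of all TPM. In TPM as deposited the control libraries lay above all treated ones. This total was not tested under the other scalings, which raise the DTPA libraries relative to control (median-of-ratios factors of 0.910 to 0.932 against 0.996 to 1.02). Divided by these factors, replicate 1 of DTPA (12540 TPM, factor 0.910) lay above replicate 1 of control (13948 TPM, factor 1.02). The totals of DTPA and control therefore overlap under median-of-ratios scaling. Hba-x made up 0.0622%, 0.0481% and 0.0478% of the pool in control and 0.602%, 0.566% and 0.492% with DTPA, a mean share 10.5 times as high. With DFO its share was 0.0167%, 0.0280% and 0.0172%, and with SA 0.0264%, 0.0277% and 0.0134%, which were 2.56-fold and 2.34-fold below control on average. None of these groups overlapped with control. For each the exact two-sided permutation test gave p = 0.1 (adjusted p = 0.123 over the 27 shares, sums and ratios compared), which is the smallest p that 3 libraries against 3 can give.

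**Figure D2:**
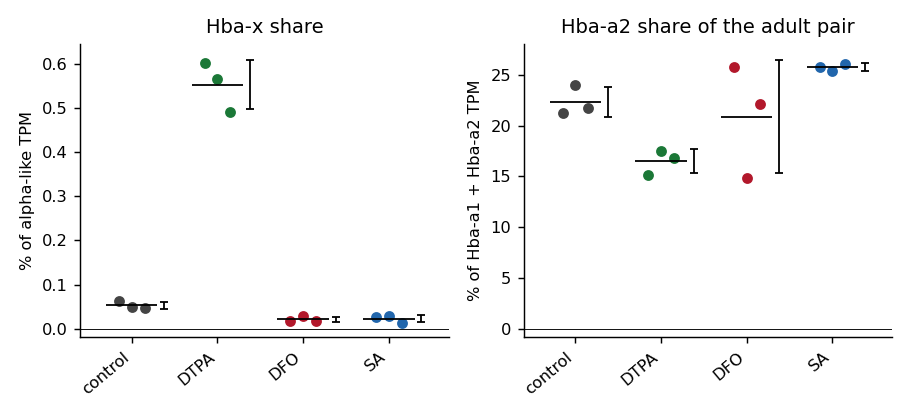
Left, percent of the summed alpha-like TPM held by Hba-x, and right, percent of the summed Hba-a1 and Hba-a2 TPM held by Hba-a2, in each library by group; points are libraries, lines are means and side bars are SD (n = 3). The Hba-x share stands near 0.5% to 0.6% with DTPA and below 0.07% elsewhere, and the Hba-a2 share of the adult pair is spread from 14.8% to 25.7% in the DFO libraries.

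Even at its highest Hba-x stayed below 1% of the alpha-like pool, which remained adult. Hba-a1 held 77.4% ± 1.49 of it in control, 82.8% ± 1.17 with DTPA, 78.8% ± 5.54 with DFO and 74.0% ± 0.351 with SA. Of the adult pair alone, Hba-a2 supplied 22.4% ± 1.48 in control, 16.5% ± 1.20 with DTPA and 25.8% ± 0.366 with SA. The DTPA libraries lay below and the SA libraries above all control libraries in this split (exact permutation p = 0.1 each, adjusted p = 0.123). With DFO the 3 libraries gave 25.7%, 14.8% and 22.1%, on both sides of control (exact permutation p = 0.9). Their mean was 20.9% with all libraries and 23.9% without replicate 2, so the direction against control rests on that library. Hbq1b kept a similar part of the pool, 0.277% ± 0.0307 in control and 0.277% ± 0.0192 with DTPA, 0.310% ± 0.0187 with DFO and 0.329% ± 0.0320 with SA, with overlap in every comparison (exact permutation p = 1, 0.2 and 0.2).

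Hemoglobin needs alpha-type and beta-type chains in like amounts, so the alpha-like sum was set against the sum of the 6 beta-like genes in the tables. Hbb-bh0, 1 of the 6, is annotated as a pseudogene and held at most 21.2 TPM in any library. The alpha-like sum holds no pseudogene. The ratio was 0.685, 0.652 and 0.709 in control, 0.270, 0.298 and 0.331 with DTPA, 1.00, 0.760 and 0.881 with DFO, and 1.42, 1.08 and 1.25 with SA. DTPA lay below control, and DFO and SA lay above it, without overlap (exact permutation p = 0.1 each, adjusted p = 0.123). Mean ratios were 0.682 ± 0.0285, 0.300 ± 0.0303, 0.881 ± 0.121 and 1.25 ± 0.172.

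The alpha-like sum moved far less than the beta-like sum. In the same order the beta-like sums were 22014 ± 1894, 41175 ± 4677, 13326 ± 1115 and 9163 ± 1173 TPM. As deposited, the beta-like sum thus rose with DTPA while the alpha-like sum was lower, and both were lower with DFO and SA. Under median-of-ratios scaling the alpha-like sums of DTPA and control overlap. The adult beta gene Hbb-bt had 1 DTPA library at 11222 TPM, with the lowest of that group at 2782, and an SA range of 725 to 3230.1 TPM. Without Hbb-bt the ratios were 0.776 ± 0.0245, 0.349 ± 0.0149, 0.976 ± 0.126 and 1.52 ± 0.0701, again with no overlap with control. Adult alpha over adult beta was 0.683 in control, 0.382 with DTPA, 0.881 with DFO and 1.25 with SA.

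**Figure D3:**
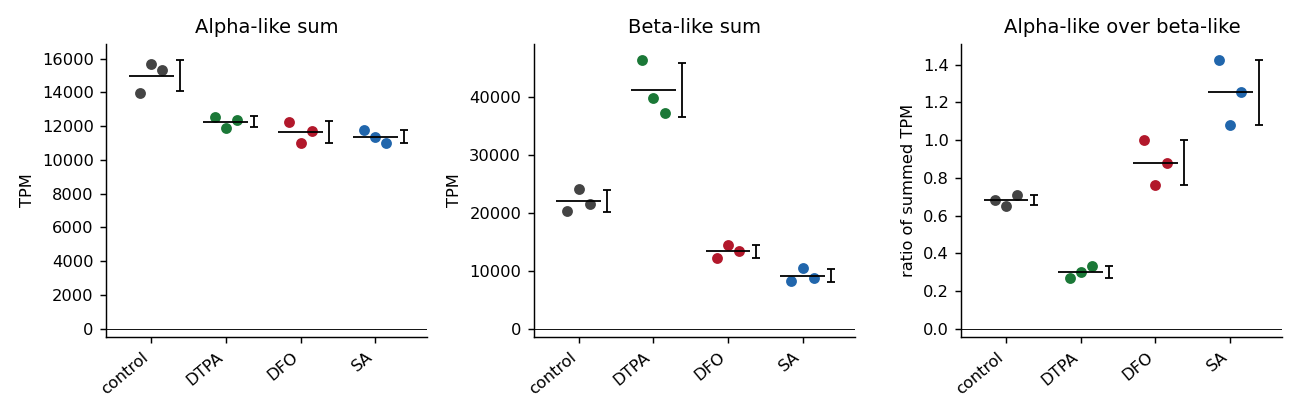
Summed TPM of the 5 alpha-like and of the 6 beta-like globins and their ratio in each library, by group; points are libraries, lines are means and side bars are SD (n = 3). The alpha-like sums of the treated groups lie close together, and the ratio runs from 0.270 to 0.331 with DTPA to 1.08 to 1.42 with SA.

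Embryonic genes of the 2 clusters were then set side by side. Per TPM of the embryonic beta-like genes Hbb-bh1 and Hbb-y there was 0.0828 ± 0.00690 TPM of Hba-x in control, and 0.00761 ± 0.000979 with DTPA, 10.9-fold less (exact permutation p = 0.1). With SA the ratio was 0.215 ± 0.0618, 2.60-fold more, without overlap (exact permutation p = 0.1), and with DFO it was 0.0648 ± 0.0175, overlapping control (exact permutation p = 0.3). The SA ratio rests on few reads per library, 9 to 21 of Hba-x, 38 to 53 of Hbb-bh1 and 2 to 3 of Hbb-y. Hbb-bh1 and Hbb-y together held 0.432% ± 0.0348 of the beta-like sum in control and 21.9% ± 2.86 with DTPA, where Hba-x held 0.553% ± 0.0560 of the alpha-like sum.

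The treatments were also tested against each other in the same fit. Between DTPA and DFO, 2 of 5 members were called, both higher with DTPA, against 65.9% of all genes. Hba-x was 28.5-fold higher with DTPA than with DFO (log2 fold change 4.36, adjusted p = 1.99e-09 by limma) and Hba-a1 was 1.11-fold higher (0.15, adjusted p = 0.00671). Between DTPA and SA, 3 of 5 were called, against 67.1%. Hba-x was 26.4-fold higher with DTPA (4.30, adjusted p = 2.07e-09), Hba-a1 was 1.21-fold higher (0.27, adjusted p = 7.81e-05) and Hba-a2 was lower (-0.54, adjusted p = 0.0220). The Hba-a2 call was lost without replicate 1 of DTPA (-0.50, adjusted p = 0.0640), without replicate 1 of SA (-0.52, adjusted p = 0.0580) and under 3 other settings, median-of-ratios scaling (adjusted p = 0.114), trimmed-mean scaling (adjusted p = 0.101) and no filter (adjusted p = 0.0537).

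Without replicate 2 of DFO, Hba-a2 was lower with DTPA than with DFO (-0.51, adjusted p = 0.00101), against -0.24 with it (adjusted p = 0.282). The summed adult pair did not pass between DTPA and DFO (0.07, adjusted p = 0.255) or between DTPA and SA (0.10, adjusted p = 0.0828). Between DFO and SA, limma called 0 of 5 members, where 13.5% of all genes were called. At an unadjusted p below 0.05 there was 1, Hba-a1 (0.13, adjusted p = 0.0614), and voom on the recovered reads called 1, also Hba-a1 (0.12, adjusted p = 0.0104). Hba-x differed between DFO and SA by -0.05 on the log2 scale with an SE of 0.189.

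**Figure D4:**
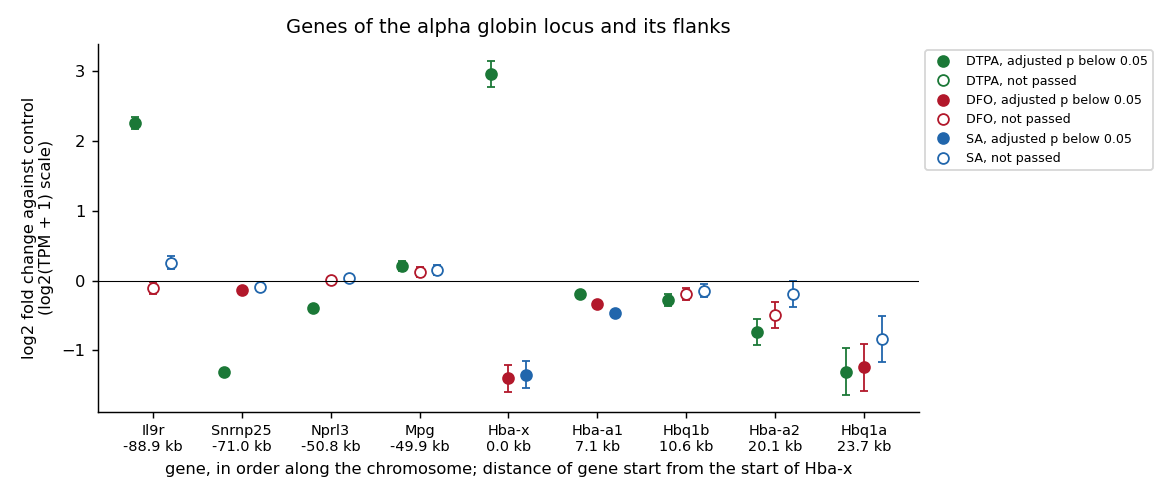
Log2 fold changes of log2(TPM + 1) against control for the 5 alpha-like globins and their tested neighbours on the chromosome, in gene order, with the distance from the Hba-x start in kb as labels; bars are SE and filled points have an adjusted p below 0.05. Hba-x stands at 2.96 with DTPA and at -1.40 and -1.35 with DFO and SA, while the 4 other globins have values below 0 in all 3 treatments.

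Genes around the locus were taken from a list of 8, of which 5 were tested. Rhbdf1 lay below 1 TPM, and Sh3pxd2b and Ubtd2 were at 0. Polr3k, the last of the 5, lies on chromosome 2 in this annotation and is no neighbour. With DTPA 2 of the 5 rose and 3 fell (65.5% of all tested genes were called). With DFO 1 fell (10.7%), and with SA none was called (22.2%), though 1 fell under both other scalings. Il9r, which encodes a cytokine receptor, rose with DTPA from 2.30 to 14.7 TPM (log2 fold change 2.26). Snrnp25, which encodes a splicing protein, fell from 319 to 129 TPM (-1.30), and to 289 TPM with DFO (-0.14, adjusted p = 0.0314). Nprl3, the gene that hosts the enhancers, fell from 36.0 to 27.2 TPM with DTPA (-0.39, adjusted p = 1.42e-06). Polr3k, a subunit of RNA polymerase III, fell from 44.7 to 24.3 TPM (-0.85).

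Of 20 listed regulators of globin genes, 19 were tested. With DTPA 6 rose, 6 fell and 7 did not pass, where 65.5% of all tested genes were called, so this count says little about the regulators. Myb, among the 6 that rose (0.622 to 1.91 TPM), passed the filter on low values only through its DTPA libraries. Its call therefore partly follows from the filter. With DFO 3 rose and 4 fell (10.7% of all tested genes were called), and with SA 7 rose and 2 fell (22.2%). Under median-of-ratios scaling these splits were 11 and 5, 0 and 4, and 7 and 6, so the rises with DFO were all lost under it. Gata1, the master factor of the red cell programme, fell with DTPA from 2501 to 1058 TPM (-1.24, adjusted p = 5.60e-12), but reads of the introduced fusion and of the cells' own locus cannot be separated in these tables. Tal1, its partner, fell from 238 to 136 TPM (-0.81), and Bcl11a, a repressor of embryonic and fetal globin genes, fell from 6.22 to 3.10 TPM (-0.82). Tfcp2, which binds the alpha-globin promoter, rose from 3.60 to 7.06 TPM (0.81).

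Changes of the regulators with the other agents were small. With SA, Bcl11a rose to 8.34 TPM (0.37, adjusted p = 0.000951), the co-repressor gene Cbfa2t3 rose from 57.2 to 73.1 TPM (0.35) and Tcf3, which encodes a partner of TAL1, rose from 101 to 120.3 TPM (0.25). Mafg, which encodes the small subunit that pairs with NF-E2, fell from 111 to 92.0 TPM with SA (-0.27) and to 98.2 TPM with DFO (-0.18). Gata1 fell to 2230.3 TPM with DFO (-0.16, adjusted p = 0.00330) and to 2126 TPM with SA (-0.23, adjusted p = 0.000116). Bcl11a with DFO (0.22, adjusted p = 0.0361) and the repressor gene Zbtb7a with DFO (0.20, adjusted p = 0.00839) lost their calls under both other scalings.

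Partners of the alpha chain were genes for its turnover, its folding, its mRNA and translation, and the handling of oxidants. Of 12 listed, 10 were among the gene rows and 8 were tested. Ahsp, the gene of the chaperone of free alpha chains, was not analysed here. With DTPA 3 rose and 4 fell (65.5% of all tested genes were called). With DFO 2 fell and none rose (10.7%), and with SA 1 rose and 6 fell (22.2%). Under both other scalings 4 rose and 4 fell with DTPA, 4 fell with DFO and 6 fell with SA, and none rose with DFO or SA. Ube2o, which encodes the enzyme that marks surplus alpha globin for breakdown, rose with DTPA from 96.1 to 197 TPM (1.03) and fell with DFO to 73.7 TPM (-0.38) and with SA to 58.2 TPM (-0.72, adjusted p = 1.88e-07). Ulk1, an autophagy kinase gene linked to the clearance of free alpha chains, rose with DTPA from 38.2 to 72.2 TPM (0.90). Cat, which encodes catalase, fell from 1024 TPM to 630.3 with DTPA, 884 with DFO and 741 with SA. Prdx2, a peroxiredoxin gene of red cells, fell from 2910.1 to 1958 TPM with DTPA. Hspa8 and Pcbp1, which encode a chaperone and an RNA-binding protein that stabilises alpha-globin mRNA, fell with SA by 0.25 and 0.19 on the log2 scale.

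The genes whose log2(TPM + 1) followed a member most closely over the 12 libraries were picked by Pearson's r out of 8007. For Hba-x these were Tedc2 (r = 0.990), Fis1 (r = 0.986) and the platelet-type tubulin gene Tubb1 (r = 0.985), whose mean levels were 156 TPM in control, 223 with DTPA, 118 with DFO and 123 with SA. For Hba-a1 they were Prr13 (r = 0.946), Esd (r = 0.938) and the ferritin heavy chain gene Fth1 (r = 0.927), which went from 2302 TPM in control to 2124, 2106 and 1995 TPM with DTPA, DFO and SA. For Hba-a2 they were Mir301 (r = 0.888), Defb4 (r = 0.874) and Arl5a (r = 0.854), for Hbq1b Aldoa (r = 0.841), and for Hbq1a Nudt22 (r = 0.823). The libraries share their groups and their scaling, so these values describe likeness only.

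Among the members themselves likeness was lower. Over the 12 libraries Hba-a1 and Hba-a2 had r = 0.169, Hba-a1 and Hba-x r = 0.472, Hba-a2 and Hba-x r = -0.487, and Hba-a2 and Hbq1b r = 0.677, the highest of the 10 pairs. Of the near copies, Hba-a1 had its lowest group mean with SA and Hba-a2 with DTPA.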

How the data were processed

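Polyadenylated RNA of 12 libraries (3 per group) was sequenced as stranded libraries, per the labels' protocols. Alignment to build mm10 and counting named HISAT2 2.1.0 and featureCounts, beside Trimmomatic 0.33, FastQC and edgeR, per the submitters' processing notes. Not given in the sources used here are their settings, in particular how reads matching both near-identical copies were treated. The deposited values are TPM, in 1 table for each library. Where 1 of 114 symbols was repeated, the copy with the highest mean was kept. TPM times GENCODE M21 exon length gave whole reads for 98.7% to 98.9% of values up to 200 reads (within 0.1 read).

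The 11917 genes that reached 1 TPM in 3 or more libraries were fitted as log2(TPM + 1) by limma 3.58.1 (R 4.3.3), all 12 libraries in 1 fit, with a mean-variance trend and Benjamini-Hochberg adjustment over all tested genes, at a threshold of 0.05. This scale understates changes of genes near 1 TPM. Shares and ratios, 1 value per library, were compared by exact two-sided permutation tests. The limma p-values set a difference against the spread between replicates of 1 cell line, estimated from all groups together. Permutation p-values come from relabelling the same replicates. No 2 replicates held identical values, and their reads differed by more than sampling noise (chi-square over its degrees of freedom, 2.04 to 5.61). The fit was tested on simulated data. Tables were read with Python 3.11.15 and pandas 2.3.3.

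All 5 members were named. From each list, up to 4 called genes per comparison were eligible by size of change, if 1 of the groups averaged 5 TPM or more. For likeness these were the 3 highest r per member among genes averaging 5 TPM or more, and some were left out for length. The members and lists were chosen with earlier results of these data known. The alternatives were pseudocounts, filters, scalings, a robust step, fits of only the libraries compared, a replicate block, near copies summed and each library left out. Voom on the recovered reads, shares in reads and counts without Hbq1a were added after seeing the data.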

Additional observations from a re-analysis of the deposited data

How the results depend on the processing

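Of 669 alternative values for single genes, 625 kept direction and side of the threshold, 23 lost the call, 7 gained it and 14 changed sign, none of the 14 called. With DTPA the count of members called fell from 5 to 3 under median-of-ratios scaling, trimmed-mean scaling and voom (which tested 4 members), and to 3 of 3 features with near copies summed. Between treatments it fell from 5 to 3 with no filter and to 2 with copies summed. Summing leaves 3 features, and the other causes were not tested. Sign changes were Hbq1b between DTPA and DFO (0.0898 and 0.0732 under the scalings, 0.0031 by voom) and between DTPA and SA (0.0470 and 0.0313 under the scalings). With libraries left out in turn, Hbq1a between DTPA and DFO ran from -0.33 to 0.14, Hba-x between DFO and SA from -0.30 to 0.0718, and Hbq1b between DFO and SA from -0.10 to 0.00013. The Hbq1a call with DFO was lost in 10 of 21 alternatives, and that of Hba-a1 between DTPA and DFO with no filter. Without replicate 2 of SA, Hbq1a was called with SA (adjusted p = 0.0337). Differences in the Hba-x share and in the alpha to beta ratio kept their direction in every alternative run. With libraries left out in turn (chosen after seeing the data for these shares), the Hba-a2 share of the adult pair with DFO changed sign without replicate 2 of DFO (-1.47 to 1.58 percentage points), and the Hbq1b share with DTPA, which differed from control by -0.00041 points, ran from -0.0127 to 0.0168.

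Same-numbered replicates of different groups did not deviate together (r of -0.0433 to 0.0537 in 18 pairs, against -0.0625 to 0.0567 in 36 others), and 6 of 12 libraries correlated best with one of their own number. With the replicate number as a block, limma called 7746 genes with DTPA, 1058 with DFO and 2432 with SA, against 7810, 1272 and 2642 without it. The members called numbered 5, 3 and 2, as without the block, and the block changed no call of a member. Depth limits Hbq1a throughout and Hba-x with DFO and SA, where a library held at most 21 reads.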
